A study of Sus scrofa with 36 samples.

Results

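The genes described here encode subunits of oxidative phosphorylation, and they were taken from a list of 46 symbols, 13 encoded by mitochondrial DNA and 33 by nuclear DNA. The list was matched to Ensembl pig identifiers, and 41 of the 46 genes had a row in the count tables of 31907 identifiers, namely the 13 mitochondrially encoded genes and 28 nuclear genes. The remaining 5 (NDUFB3, NDUFS7, UQCRB, COX6C and ATP5F1B) could not be matched and were not analysed here. RNA was measured by sequencing of the cerebellum of 36 piglets, term-born crossbred animals of both sexes that were 3 days old at the start and were fed for about 3 weeks in a 2 × 2 design. Piglets of normal birth weight (NBW) or with intrauterine growth restriction (IUGR, a low birth weight with an altered head shape) received formula whose fat was either vegetable oil (VEG) or fat of bovine milk (MILK). All 4 groups were fed formula over this time, and no group was fed by the sow. The VEG-NBW and VEG-IUGR groups and the MILK-NBW and MILK-IUGR groups held 9 piglets each, and each piglet was 1 library. Piglets came from several litters, and littermates are not marked in the labels.

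Oxidative phosphorylation is the last stage of respiration, in which complexes I to IV pass electrons to oxygen and pump protons across the inner mitochondrial membrane, and complex V uses the proton gradient to make ATP. The complexes are built from subunits of both genomes, except complex II, which is encoded in the nucleus alone. Mitochondrial DNA is transcribed as long precursors from both strands, which are cut into shorter messengers. These messengers are made apart from the nuclear ones. Their levels are set in part by the number of genomes, by transcription and by the stability of each RNA. The cerebellum spends much of its ATP on ion pumping in granule and Purkinje neurons. In a bulk sample, fewer cells of a type and less RNA per cell cannot be told apart.

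The 13 mitochondrially encoded genes are 7 complex I subunits (ND1, ND2, ND3, ND4, ND4L, ND5 and ND6), CYTB of complex III, COX1, COX2 and COX3 of complex IV, and ATP6 and ATP8 of complex V. They lie on chromosome MT of Sscrofa11.1, from ND1 at positions 3922 to 4876 (ENSSSCG00000018065) to CYTB at 15342 to 16481 (ENSSSCG00000018094), and each is a single stretch without introns. Neighbouring genes share bases in 4 places. ATP8 (8959 to 9162) and ATP6 (9120 to 9800) share 43 bases, which is 21.1% of ATP8, ND5 and ND6 share 17, ND4L and ND4 share 7, and ATP6 and COX3 share 1. The strand setting of the counting is not given in the sources used here, so RNA of the opposite strand may be among the counts of a gene. For ND6, which lies on the other strand, this holds along its whole length and not only where it overlaps ND5. ATP8 had 0 counts in all 36 libraries, a count that allows up to 0.13 to 0.378 CPM per library (counts per 1000000 counts on genes). This limit is one of counts and need not hold for the RNA of ATP8, which was left with no further value. Nuclear copies of mitochondrial DNA, which could share reads with these genes, were not examined.

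Libraries of 3 piglets were set aside by their share of reads without a gene. The study left out 1 VEG-NBW, 1 VEG-IUGR and 1 MILK-NBW sample for low RNA integrity without naming them. Piglets 202 (VEG-NBW), 210 (VEG-IUGR) and 213 (MILK-NBW) had the most reads without a gene in their groups, 43.6%, 64.3% and 31.5% against 26.7 to 30.5% in the others. Whether these are the samples that the study left out is not known. Piglet 213 lay close to the others, and its 19532 genes detected were within their 18635 to 19682. The results below rest on the other 33 libraries (8, 8, 8 and 9 piglets), with 15516541 to 23027502 counts on genes each, and all 36 are given beside them. The 33 expressed the markers of cerebellum. The 6 granule neuron markers (NEUROD1, GABRA6, ZIC1 and others) summed to 2961 to 4506 CPM and the 6 Purkinje cell markers to 2311 to 4710 CPM, while 5 forebrain markers together reached 2.05 to 4.87 CPM.

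Messengers of the mitochondrial genome made up a large part of the cerebellar RNA. Their summed counts were 6.4% of all gene counts at the median of the 33 libraries, with a range of 5.22 to 10.3%. The 28 nuclear subunits together made up 0.521% at the median, with a range of 0.442 to 0.602%. The mitochondrial sum was therefore 12.1 times the nuclear sum at the median, and 10 to 17.8 times over the single piglets. Counts between genes can be compared only per length, which was possible for the intronless mitochondrial genes. Short genes and genes that share bases with a neighbour may lose counts, which was not tested. A rank per length is therefore one of counts and need not be one of RNA levels.

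Per kilobase, counts on ATP6 and on the complex IV genes ranked highest among the mitochondrial genes. ATP6, the proton channel subunit of complex V, had a median of 13819 CPM per kb and COX3 had 12724, and their ranges over piglets (8942 to 22650 and 10157 to 20561) overlapped almost wholly. COX1, the catalytic subunit of complex IV and the gene with the most counts of all 46 (238185 to 483245 per library), followed with 10678 CPM per kb, next to COX2 with 10622. CYTB had 5108 CPM per kb and lay between these and the complex I genes, of which ND3 had 4261, ND4 3310, ND2 2732, ND5 1665 and ND1 1616. The lowest were ND6 with 1347 and ND4L with 1110, and the range of ND6 (846 to 2521) overlapped those of ND4L, ND1 and ND5. ND4L is short (297 bases) and overlaps ND4, and the part of this in its low value was not tested. COX3 exceeded ND6 9.45 times and COX1 exceeded it 7.93 times at the median.

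Among the nuclear subunits, ATP5F1A, the alpha subunit of the complex V headpiece, had the highest level without regard to length, 826 CPM at the median with a range of 719 to 992. NDUFS8, an iron-sulfur subunit of complex I, had the lowest, 0.424 CPM (2 to 13 counts per library), and fell below the filter on low counts, which left 27 nuclear and 12 mitochondrial genes for testing. COX4I1, which encodes a core regulatory subunit of complex IV, was also low, with 10.4 CPM at the median (99 to 315 counts), and whether its reads were shared with a near-identical copy was not tested. The other complex IV genes had medians, likewise without regard to length, of 152 CPM for COX5A, 251 CPM for COX5B and 169 CPM for COX7B. The 11 tested complex I genes ran from NDUFV1 with a median of 48.6 CPM to NDUFA4 with 401 CPM. Between them lay NDUFS3, NDUFB5, NDUFV2, NDUFA9, NDUFB8, NDUFA8, NDUFA10, NDUFB10 and NDUFS1. NDUFA4 is a subunit listed by name with complex I and now placed with complex IV. The other complex V genes, ATP5PB, ATP5F1C and ATP5PO, had medians of 302, 294 and 226 CPM. The 4 complex II genes, SDHA, SDHB, SDHC and SDHD, had medians of 312, 116, 109 and 76.6 CPM. In complex III, UQCRC1 had a median of 301 CPM, UQCRFS1 264 CPM, CYC1 202 CPM and UQCRC2 125 CPM.

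The mitochondrial share overlapped between all 4 groups. It was 5.74, 6.54 and 7.12% (lowest, median and highest) in VEG-NBW, 5.36, 6.62 and 8.29% in VEG-IUGR, 5.22, 6.1 and 6.39% in MILK-NBW and 5.64, 6.66 and 10.3% in MILK-IUGR. MILK-NBW had both the lowest median and the narrowest spread, and the MILK-IUGR piglets reached highest. A MILK-IUGR piglet exceeded a MILK-NBW piglet in 61 of 72 pairs. The nuclear share hardly moved, with medians of 0.52, 0.522, 0.517 and 0.522% in the same order.

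**Figure D1:**
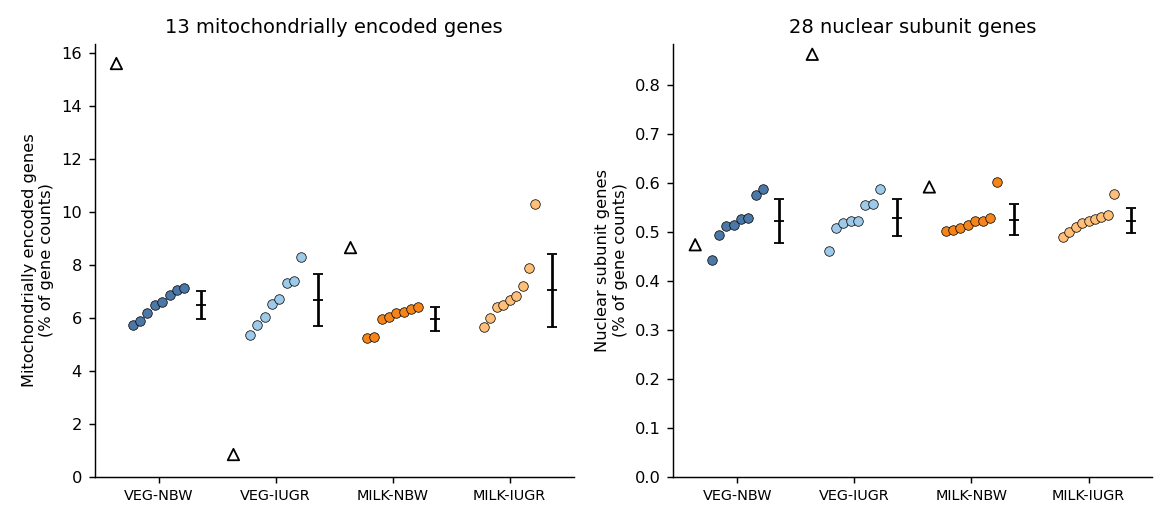
Share of gene counts on the 13 mitochondrially encoded genes (left, %) and on the 28 nuclear subunits (right, %) in each piglet by group; filled points are the 33 libraries, with mean ± SD beside them, and open triangles are piglets 202, 210 and 213. The mitochondrial shares of the groups overlap, piglet 207 of MILK-IUGR lies highest of the filled points at 10.3%, and the triangles lie at 15.6, 0.841 and 8.65%.

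The ratio of the mitochondrial to the nuclear sum showed the same order. On the log2 scale it was 3.64 ± 0.104 in VEG-NBW (SD, n = 8), 3.65 ± 0.202 in VEG-IUGR (n = 8), 3.5 ± 0.124 in MILK-NBW (n = 8) and 3.73 ± 0.212 in MILK-IUGR (n = 9). MILK-IUGR exceeded MILK-NBW by 0.231, which is above the pooled within-group SD of 0.167. The other differences were below that SD, with -0.134 for MILK-NBW against VEG-NBW, 0.0841 for MILK-IUGR against VEG-IUGR and 0.0131 for VEG-IUGR against VEG-NBW. No test was run on this ratio, since it sums over the listed genes. With all 36 libraries the mean ratio of VEG-IUGR fell under that of VEG-NBW by 0.553 on the log2 scale, a direction carried by piglets 202 and 210 (ratios of 33 and 0.975).

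Within groups, pairs of messengers of the same genome had higher correlations at the median than pairs across the genomes. After the group means were removed, the 66 pairs of mitochondrial genes had a median Pearson correlation of 0.75 over the 33 piglets, with a range of -0.028 to 0.912. The 351 pairs of nuclear genes had a median of 0.599, and the 324 pairs of 1 mitochondrial and 1 nuclear gene a median of 0.31. These values share libraries and depth and are descriptions without a test. COX3 followed the other mitochondrial genes most closely, with a median correlation of 0.809, and ND3 least, with 0.504. On the nuclear side, ATP5PO, a stalk subunit of complex V, and COX7B were nearest to the mitochondrial genes, with medians of 0.687 and 0.649, both above their medians with the other nuclear genes (0.52 and 0.616). NDUFV1, which carries the NADH binding site of complex I, was at the other end with -0.17. Piglet 207 of MILK-IUGR was the highest of its group in all 12 mitochondrial and 23 of 27 nuclear genes, ATP5PO and COX7B among them. The correlations between genes were not computed without it.

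**Figure D2:**
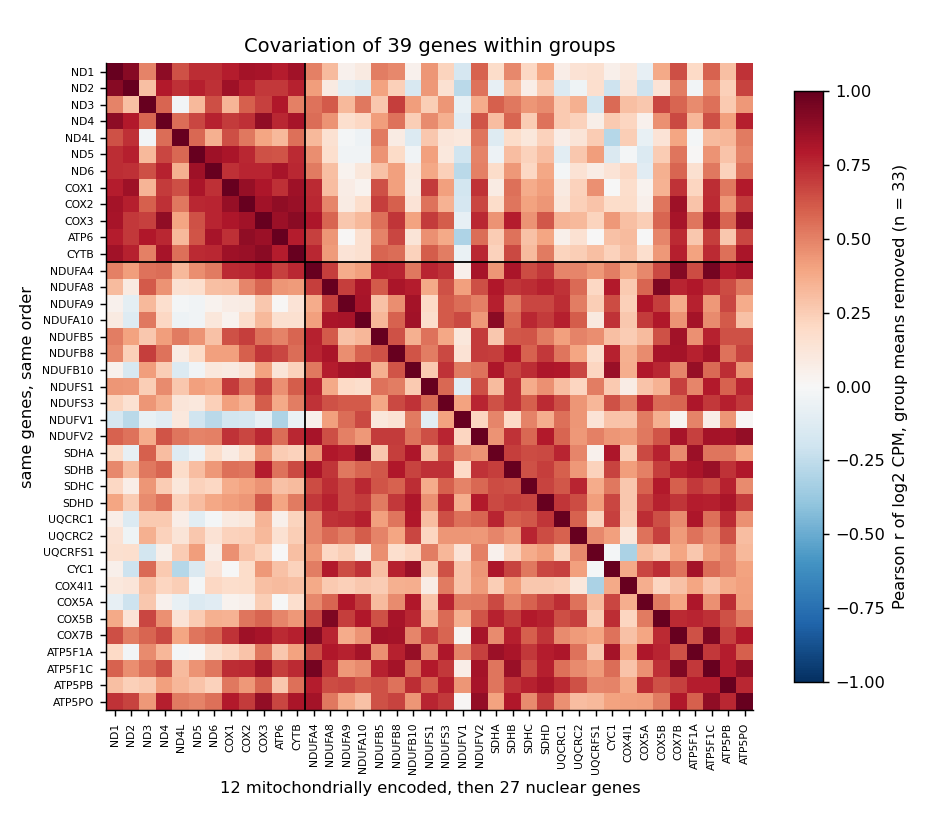
Pearson correlation of log2 CPM between the 39 tested genes over 33 piglets after removal of group means; black lines part the 12 mitochondrially encoded from the 27 nuclear genes. The upper left block (median 0.75) is darker than the blocks between the genomes (median 0.31), and NDUFV1 has a median of -0.17 with the mitochondrially encoded genes and of 0.361 with the nuclear ones.

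The spread between piglets of a group, pooled over the groups, was larger at the median for the mitochondrial genes. Their within-group SD of log2 CPM ran from 0.193 for CYTB to 0.313 for ND4L, with a median of 0.232. The nuclear subunits had a median of 0.15, from 0.0824 for UQCRFS1 to 0.341 for COX4I1. The mitochondrial share and the nuclear share of a piglet had r = 0.386 (Spearman 0.392) over 33 piglets, and 0.333 without the 2 piglets farthest from the median. Within groups r was 0.639, 0.284, 0.282 and 0.742 for VEG-NBW and VEG-IUGR and then for MILK-NBW and MILK-IUGR, over 8 or 9 piglets each, and Spearman's rho was 0.571, 0.333, 0 and 0.317.

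None of the 39 genes differed in any comparison at an adjusted p under 0.05 in edgeR's quasi-likelihood test. Over all 15356 genes, the share called was 0% for diet, birth weight, their interaction and the 4 comparisons of groups, and 0.163% (25 genes) for sex. The smallest adjusted p of a listed gene was 0.7299, for COX4I1 in MILK-NBW against VEG-NBW. DESeq2 and limma voom also called 0 of the 39 in each comparison. The values that follow use unadjusted p-values under 0.05 as a description, and each count is set beside the share of all genes that passed the same limit. Permutation tests were run on the genes with the smallest p in edgeR, on the same piglets, with no adjustment and no sex term. Their p-values are therefore descriptions too, and no second line of support.

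The comparison of MILK-IUGR with MILK-NBW asked how birth weight mattered under milk fat. All 12 mitochondrial genes were higher in MILK-IUGR, with a median log2 fold change of 0.24 and a range of 0.09 to 0.34, whereas the median was 0.0028 for the 27 nuclear subunits and -0.0049 for all genes. Of the 12, 9 passed an unadjusted p under 0.05 and all 9 were higher (ATP6, CYTB, ND5, ND6, COX2, COX1, ND1, ND2 and ND4), against 3.94% of all genes higher and 6.24% in both directions. None of the 27 nuclear subunits passed. All of them but ND6 are cut from 1 precursor, and they vary together, so they are not 12 separate observations.

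ATP6 had 6090, 9291 and 9840 CPM (lowest, median and highest) in MILK-NBW and 7507, 10075 and 15425 CPM in MILK-IUGR. The groups overlapped, and 73.6% of pairs had the MILK-IUGR piglet higher. Its log2 fold change was 0.31 (SE 0.115), with an unadjusted p = 0.0118 and an adjusted p = 0.7708 in edgeR, and an exact permutation test of log2 CPM gave p = 0.0472. CYTB, the only complex III subunit of the mitochondrial genome, had 4741, 5388 and 5856 CPM in MILK-NBW and 5593, 6123 and 9725 CPM in MILK-IUGR. The overlap was small, with the MILK-IUGR piglet higher in 64 of 72 pairs. CYTB changed by 0.24 (SE 0.0959), with an unadjusted p = 0.0171 and an adjusted p = 0.7708 in edgeR, and an exact permutation p = 0.0028. ND5 had the largest value, 0.34 (SE 0.138), and ND3 the smallest, 0.09.

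A single piglet carried much of this. Piglet 207, a MILK-IUGR female, was the highest of its group in all 12 mitochondrial genes, with a median of 1.73 times the median of the other 8, and in 23 of 27 nuclear genes, with 1.17 times. CYTB reached 9725 CPM in this piglet against 5593 to 6337 CPM in the rest of the group. Without it, the 12 genes were still all higher in MILK-IUGR, but the median log2 fold change was 0.15 and 1 gene passed (ATP6, 0.23, SE 0.105, unadjusted p = 0.0347), against 2.47% of all genes higher. CYTB then changed by 0.16 with an unadjusted p = 0.053. With all 36 libraries, 0 of 12 passed, against 0.228% of all genes higher, and the median was 0.18. The exact permutation p-values became 0.219 for ATP6 and 0.169 for CYTB, and 11 of 12 genes stayed higher.

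Piglet 207 had 27.4% of reads unassigned, the lowest value of its group, and 19003 genes detected, within the group's 18842 to 19682. Its glial marker sums lay in the upper part of its group. The 5 oligodendrocyte markers summed to 31811 CPM, the highest in MILK-IUGR (median 19719 CPM). The MILK-NBW piglets spanned 14229 to 30953 CPM, and VEG-IUGR reached 47586 CPM. The 6 markers of astrocytes and Bergmann glia summed to 10571 CPM, within 5322 to 11085 CPM in the group. The 5 microglia markers summed to 146 CPM, the highest of the group, and VEG-NBW reached 182 CPM. Granule neuron markers were at 3709 CPM and Purkinje markers at 2943 CPM, both within the group. The part of cell composition in these values was not tested.

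Of the nuclear subunits, the 3 with the smallest p in this comparison were all in complex I. NDUFV1 had 44.4, 50 and 53.4 CPM in MILK-NBW and 37.7, 46.5 and 52.4 CPM in MILK-IUGR, a log2 fold change of -0.13 (SE 0.0712, unadjusted p = 0.0876, exact permutation p = 0.0755). NDUFB10, an accessory subunit, had 152, 168 and 204 CPM against 145, 160 and 172 CPM, with -0.11 (SE 0.0638, unadjusted p = 0.0943, exact permutation p = 0.0332). NDUFS1, the largest iron-sulfur subunit, went the other way, from 147, 157 and 180 CPM to 155, 167 and 207 CPM, with 0.12 (SE 0.0685, unadjusted p = 0.0881). All 3 had an adjusted p of 0.7708 in edgeR. By complex, the median was -0.0025 for 11 complex I genes, with NDUFA4 counted there by its name. The medians were 0.0042 for complex II, -0.0423 for complex III, -0.0014 for complex IV and 0.0475 for complex V, with 4 genes in each.

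**Figure D3:**
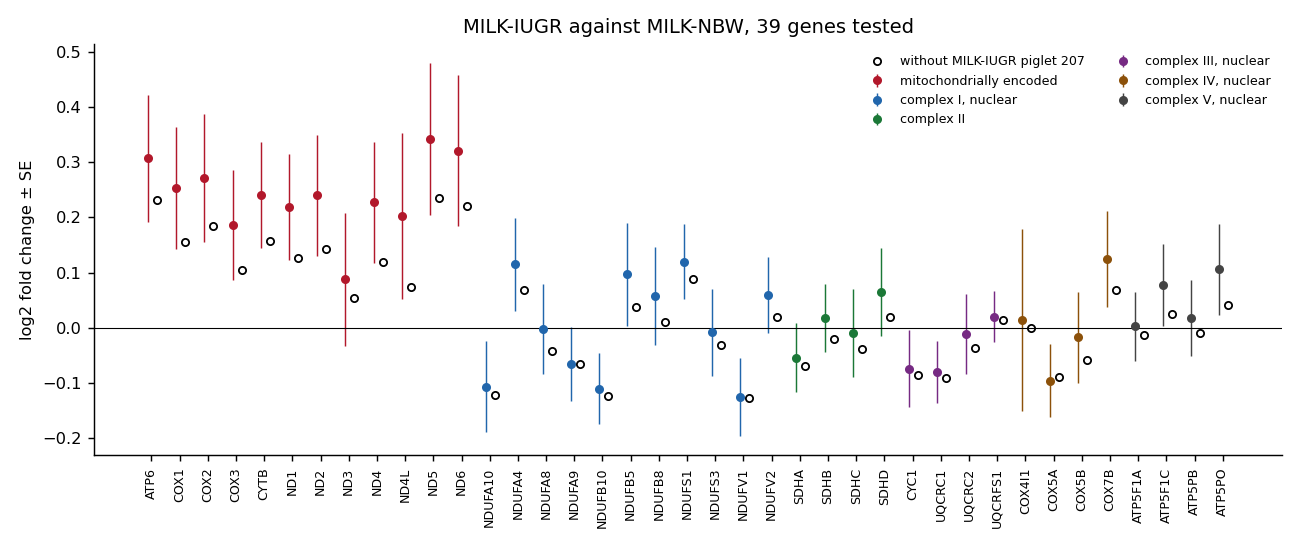
Log2 fold change of MILK-IUGR against MILK-NBW for the 39 tested genes, with bars of ± 1 SE. Filled points use 33 libraries and open points leave out piglet 207. Colour gives the genome and complex, with NDUFA4 under complex I. The mitochondrially encoded genes lie between 0.09 and 0.34, the nuclear genes lie on both sides of 0, and nearly all open points lie lower than the filled ones.

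Averaged over the diets, IUGR against NBW gave a smaller difference of the same sign. All 12 mitochondrial genes were higher in IUGR, with a median log2 fold change of 0.171, against 0.0137 for the nuclear subunits and -0.00064 for all genes. Of the 12, 5 passed an unadjusted p under 0.05, all higher (ND1, ND4, ND2, ATP6 and CYTB), against 1.03% of all genes higher and 2.19% in both directions, and 0 of 27 nuclear subunits passed. ND1, a membrane subunit of complex I, had 1247, 1521 and 1753 CPM in 16 NBW piglets and 1376, 1589 and 2726 CPM in 17 IUGR piglets. It changed by 0.17 (SE 0.068, unadjusted p = 0.0152, adjusted p = 0.9996 in edgeR), and a permutation test gave p = 0.0094. ND4, a proton-pumping subunit, had 3587, 4401 and 5250 CPM in NBW and 3961, 4983 and 8448 CPM in IUGR, with a change of 0.18 (SE 0.0771, unadjusted p = 0.0225). Birth weight groups overlapped for both genes.

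The nuclear genes with the smallest p for birth weight had wholly overlapping levels. NDUFS1 had 146, 160 and 193 CPM in NBW and 143, 167 and 207 CPM in IUGR, with 0.06 (SE 0.0491, unadjusted p = 0.196). COX7B, a small subunit of complex IV, had 143, 168 and 212 CPM against 133, 177 and 240 CPM, with 0.08 (SE 0.0618). ATP5PO had 200, 223 and 269 CPM against 199, 228 and 324 CPM, with 0.07 (SE 0.0578). Piglet 207 held the highest value of COX7B and of ATP5PO. Without piglet 207, 2 of 12 mitochondrial genes passed (ND1 with 0.13 and ND4 with 0.13), against 0.874% of all genes higher, and the median was 0.124. With all 36 libraries, 0 of 12 passed, against 0.326% of all genes higher, and the direction turned, with a median of -0.0414 and 4 of 12 higher in IUGR. The median of all genes moved with it, to -0.0439 with 33.5% of genes higher in IUGR, so relative to all genes the mitochondrial median was then near 0.

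Under vegetable oil, VEG-IUGR against VEG-NBW gave mitochondrial log2 fold changes of 0.02 to 0.14 with a median of 0.0622, and 0 of the 39 genes passed an unadjusted p under 0.05, against 2.29% of all genes. ND1 had 1247, 1521 and 1566 CPM in VEG-NBW and 1376, 1622 and 2023 CPM in VEG-IUGR, a change of 0.13 (SE 0.0977, unadjusted p = 0.202, exact permutation p = 0.141). ND4 changed by 0.14 (SE 0.111, exact permutation p = 0.127). Of the nuclear genes, COX5A had 129, 151 and 177 CPM in VEG-NBW and 134, 162 and 178 CPM in VEG-IUGR, with 0.10 (SE 0.0671, exact permutation p = 0.186). NDUFA10 changed by 0.12 (SE 0.0846) and NDUFB10 by 0.08 (SE 0.0651), from medians of 150 to 160 CPM and of 157 to 172 CPM. These 3 had the smallest p of the nuclear subunits. Over all 36 libraries the 12 mitochondrial genes were all lower in VEG-IUGR, with a median of -0.23, while the median of all genes moved to -0.117.

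Diet left the mitochondrial genes near 0. For MILK against VEG their median log2 fold change was 0.0004 with a range of -0.06 to 0.05, and 0 of 12 passed an unadjusted p under 0.05. Of the 27 nuclear subunits 2 passed, both lower in MILK, against 4.26% of all genes in both directions. COX4I1 (ENSSSCG00000029034) had 7.87, 12 and 18 CPM in 16 VEG piglets and 5.81, 9.67 and 14.4 CPM in 17 MILK piglets. The diets overlapped, with the MILK piglet higher in 19.9% of pairs. It changed by -0.39 (SE 0.114, unadjusted p = 0.00173, adjusted p = 0.9847 in edgeR), and a permutation test gave p = 0.00252. This rests on fewer counts than any other tested member, 99 to 315 per library.

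NDUFS3, a core subunit of complex I, had 49.7, 59.8 and 78.2 CPM in VEG and 50.5, 56.3 and 66.9 CPM in MILK, with -0.12 (SE 0.0551, unadjusted p = 0.0389) and a permutation p = 0.0543. UQCRC2, a core subunit of complex III, had 98.3, 124 and 149 CPM in VEG and 108, 126 and 171 CPM in MILK, with 0.06 (SE 0.0502, unadjusted p = 0.224). ND1 and ND6 had the smallest p of the mitochondrial genes for diet, with 0.05 (SE 0.0676) and -0.06 (SE 0.099), and medians of 1527 and 723 CPM in VEG and of 1549 and 699 CPM in MILK. Without piglet 207 the median over the 12 was -0.06, and 11 were lower in MILK. In limma voom with quality weights, with piglet 207 kept, the median was -0.0716 and all 12 were lower in MILK.

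The lower COX4I1 in MILK was seen at both birth weights. The comparisons at each birth weight share no piglets with each other, but together they hold the piglets of the diet comparison. They split that result by birth weight and add no separate support to it, since COX4I1 was picked there by its small p. In MILK-NBW it had 7.34, 9.54 and 10.7 CPM against 7.87, 12.7 and 18 CPM in VEG-NBW, a change of -0.38 (SE 0.166, unadjusted p = 0.0306, exact permutation p = 0.0813). It was the 1 of 39 genes to pass, against 6.67% of all genes. In MILK-IUGR it had 5.81, 9.67 and 14.4 CPM against 9.63, 11.5 and 17.1 CPM in VEG-IUGR, a change of -0.40 (SE 0.161, unadjusted p = 0.0194, exact permutation p = 0.0182). It was again the 1 of 39 genes to pass, against 3.9% of all genes. Over all 36 libraries the value of COX4I1 for MILK-NBW against VEG-NBW, which then takes in piglets 202 and 213 (35.8 and 37.4 CPM), turned to 0.08. The values that take in piglet 210, with 13765 counts of COX4I1, moved to -4.04 for MILK-IUGR against VEG-IUGR, -1.86 for diet and -4.12 for the interaction.

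In MILK-NBW against VEG-NBW, 11 of 12 mitochondrial genes were lower in MILK-NBW, with a median of -0.0877, and none passed. ND6 had 573, 719 and 952 CPM in VEG-NBW and 447, 694 and 748 CPM in MILK-NBW, a change of -0.21 (SE 0.141, exact permutation p = 0.0834). COX1 had 14454, 17434 and 20326 CPM in VEG-NBW and 14113, 15144 and 17268 CPM in MILK-NBW, with -0.16 (SE 0.113, exact permutation p = 0.0549). NDUFA10 and NDUFA9, accessory subunits of complex I, were higher by 0.15 (SE 0.0849) and 0.12 (SE 0.0688). In MILK-IUGR against VEG-IUGR the 12 mitochondrial genes had a median of 0.0772, led by ND5 with 0.16 (SE 0.136) and ND1 with 0.09 (SE 0.095), and without piglet 207 this median was -0.0265. COX5A, with 134, 162 and 178 CPM in VEG-IUGR and 128, 146 and 161 CPM in MILK-IUGR, changed by -0.13 (SE 0.0654, unadjusted p = 0.0626, exact permutation p = 0.0299), and NDUFS3 by -0.13 (SE 0.0781).

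**Figure D4:**
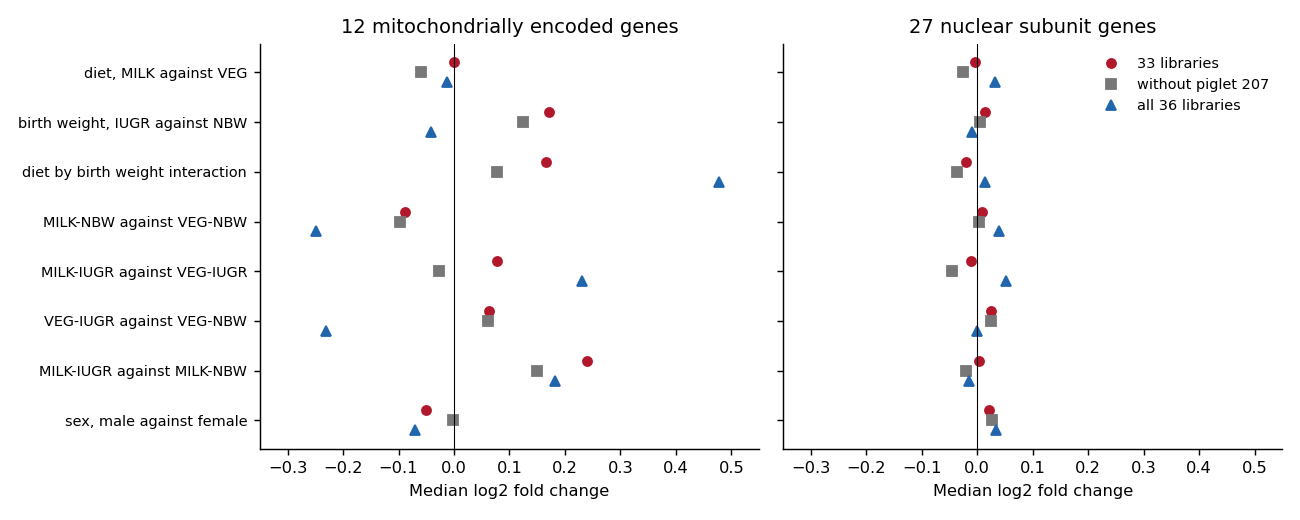
Median log2 fold change of the 12 mitochondrially encoded genes (left) and the 27 nuclear subunits (right) in each of 8 comparisons, with 33 libraries, without piglet 207 and with all 36 libraries. The nuclear medians stay near 0 throughout, whereas the mitochondrial medians range from -0.249 to 0.478 with all 36 libraries and from -0.0877 to 0.24 with 33.

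The interaction asked whether the difference between birth weights depended on the diet. For the mitochondrial genes its log2 values were all positive (median 0.166, against -0.0201 for the nuclear subunits), and 0 of 12 passed, so the larger difference under MILK was not shown to differ from that under VEG. ATP6 had 0.25 (SE 0.164, unadjusted p = 0.141) and COX1 0.24 (SE 0.158, unadjusted p = 0.142). Of 27 nuclear subunits 1 passed, against 6.09% of all genes. This was NDUFB10 with -0.19 (SE 0.0914, unadjusted p = 0.0448, adjusted p = 0.7843 in edgeR), and it had medians of 157, 172, 168 and 160 CPM in VEG-NBW and VEG-IUGR and then in MILK-NBW and MILK-IUGR. COX5A (-0.19, SE 0.0943) and NDUFA10 (-0.22, SE 0.119) had the next smallest p. COX5A had medians of 151, 162, 152 and 146 CPM in the same order, and NDUFA10 of 150, 160, 163 and 155 CPM. Without piglet 207 the mitochondrial median was 0.0772, with 8 of 12 positive, and NDUFB10 and NDUFA10 passed.

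Between 17 males and 16 females, 0 of 39 genes passed an unadjusted p under 0.05, against 2.94% of all genes. The mitochondrial genes had a median log2 fold change of -0.0511, with all 12 lower in males. Without piglet 207, a female, the median was -0.0019 and 6 of 12 were lower. ND6 had 447, 737 and 1331 CPM in females and 495, 696 and 971 CPM in males, a log2 fold change of -0.11 (SE 0.0982). ND5 had 2257, 3154 and 5921 CPM in females and 2324, 2895 and 3763 CPM in males, with -0.11 (SE 0.0991). Both maxima of the females belonged to piglet 207. UQCRC2 (0.08, SE 0.0515), SDHC, a membrane anchor of complex II (0.07, SE 0.0574), and NDUFB5, an accessory subunit of complex I (0.07, SE 0.0667), had the smallest p of the nuclear genes, with medians of 124, 104 and 64 CPM in females and 127, 110 and 69.6 CPM in males.

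The wider genes of the pathway were 36 further nuclear subunits, 34 assembly factors, 26 genes of mitochondrial DNA expression and 10 nuclear regulators, and none passed an adjusted p under 0.05 in any comparison. In MILK-IUGR against MILK-NBW their median log2 fold changes were 0.0535, -0.0206, 0.0337 and 0.0199. An unadjusted p under 0.05 was reached by 2 of the 34 assembly factors, both lower (ACAD9 with -0.14 and ATPAF2 with -0.17), and by 0 genes of the other lists, against 6.24% of all genes. In MILK-NBW against VEG-NBW it was reached by 2 of 26 genes of mitochondrial DNA expression (MTERF1 with -0.30 and FASTKD2 with -0.19), 1 of 10 regulators (GABPA with -0.19), 1 of 36 further subunits (COX6A2 with -0.11) and 0 of 34 assembly factors, all lower, against 6.67% of all genes. For birth weight 0 genes of the 4 lists reached it, against 2.19% of all genes.

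The 4 genes of these lists that were followed in every comparison stayed above an unadjusted p of 0.05. TFAM, which packages mitochondrial DNA and starts its transcription, had 43, 47 and 53.7 CPM in MILK-NBW and 44.3, 50.4 and 55.1 CPM in MILK-IUGR, with 0.09 (SE 0.056, unadjusted p = 0.107), and its values over the 8 comparisons ran from -0.05 to 0.10. LRPPRC, which stabilises mitochondrial messengers, had 127, 144 and 154 CPM against 128, 152 and 182 CPM in the same groups, with 0.13 (SE 0.0712, unadjusted p = 0.0797), and ran from -0.06 to 0.13. POLRMT, the mitochondrial RNA polymerase, had -0.05 (SE 0.0949) there and ran from -0.11 to 0.01, with its smallest unadjusted p of 0.128 for diet (-0.10). PPARGC1A, a coactivator of mitochondrial biogenesis, had 0.01 (SE 0.0725) and ran from -0.06 to 0.07, with its smallest unadjusted p of 0.239 for diet (0.06).

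The 3 libraries set aside differed from one another in the same genes. Piglet 202 had all 12 mitochondrial genes above the range of the other VEG-NBW piglets, and a mitochondrial share of 15.6% against 5.74 to 7.12%. Of its 28 nuclear subunits, 8 lay above and 13 below the range. COX1 had 53458 CPM in this piglet against 14517 to 20499 CPM, and NDUFV1 had 9.97 CPM against 38.1 to 57.1 CPM.

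Piglet 210 was the reverse for most mitochondrial genes. Its share was 0.841%, 11 of 12 mitochondrial genes lay below the range of the other VEG-IUGR piglets, and ND4 had 63.2 CPM against 3939 to 5629 CPM. ND6 alone lay above it by a narrow margin, with 1007 CPM against a highest value of 1000 CPM. Among its nuclear subunits, NDUFS1, NDUFS8, NDUFV1 and COX5A had 0 counts, which allows up to 0.378 CPM, while COX4I1 reached 1717 CPM against at most 17.3 CPM and NDUFA10 2393 CPM against at most 184 CPM. It also had 7936202 gene counts and 6513 genes detected, against 18635 to 19682 genes in the 33 libraries.

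Piglet 213 was milder, with 8 of 12 mitochondrial and 16 of 28 nuclear genes above the range of the other MILK-NBW piglets and a share of 8.65%. COX4I1 was thus higher in all 3 than in any of the 33, in which it reached 18 CPM, with 35.8 CPM in piglet 202 and 37.4 CPM in piglet 213.

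The make-up of the mitochondrial RNA also differed. Over the 33 libraries the share of a gene in the mitochondrial counts ran from 23.9 to 29.5% for COX1, from 7.99 to 10% for CYTB and from 2.1 to 2.78% for ND1, and more widely for ND3 (1.7 to 3.02%) and ND4L (0.411 to 0.778%). In piglet 210, COX3 took 31.7%, ND5 15.3% and ND6 12.1% (against 13.2 to 16.8%, 3.75 to 5.67% and 0.877 to 1.35%), and ND4 took 0.76% against 6.04 to 8.74%. In piglet 202, ND1 took 1.29%, ND4 3.96% and COX1 31.5%. The part of RNA integrity in these shares was not tested, since the integrity number of each sample was not used here.

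**Figure D5:**
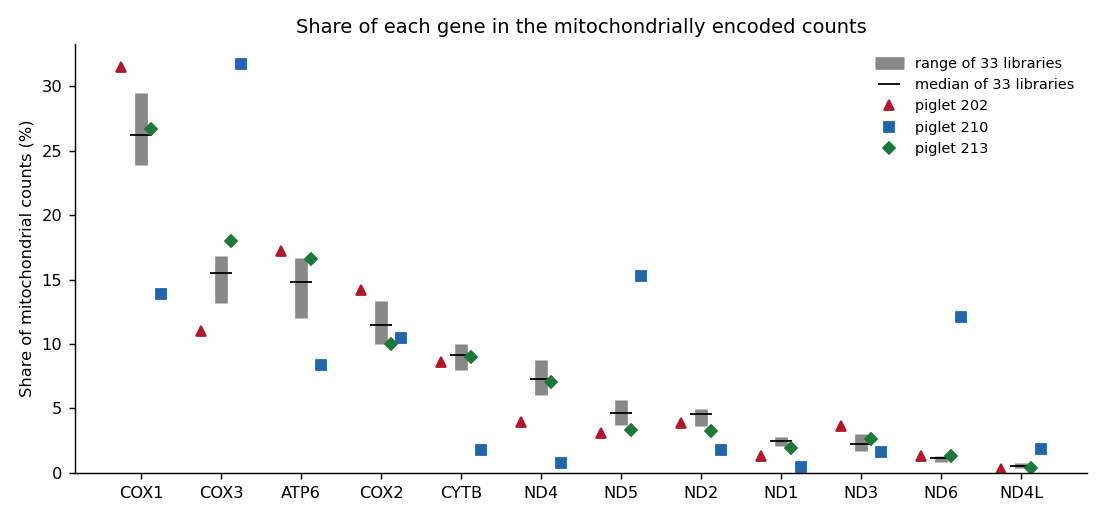
Share of each gene in the mitochondrially encoded counts (%), with grey bars for the range and black dashes for the median of 33 libraries, and symbols for piglets 202, 210 and 213. The symbols of piglet 210 leave the bars most, with COX3 at 31.7%, ND5 at 15.3%, ND6 at 12.1% and ND4 at 0.76%.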

How the data were processed

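Total RNA of the cerebellum was sequenced as paired-end 150-bp reads on an Illumina NovaSeq. The authors deposited raw read counts per Ensembl gene, 1 file per piglet, and the submitters' processing notes name Trim Galore, HISAT2, HTSeq, DESeq2 and the build Sscrofa11.1. Versions and the strand setting are not given in the sources used here. Rows for reads without a gene (26.7 to 30.5% of reads in the 33 libraries) were kept out of library sizes and tests. Counts were tested with edgeR 4.0.16 in R 4.3.3: TMM scaling, filterByExpr with a minimum count of 10, the quasi-likelihood test with sex as covariate, and Benjamini-Hochberg adjustment over all 15356 genes. CPM values use TMM-scaled library sizes, and log2 CPM a prior count of 2. Single genes were compared by two-sided exact permutation of piglets, or 100000 permutations where a group had 10 or more. These permutation tests had no sex term and no adjustment, and their genes were picked by small p in edgeR on the same piglets. The edgeR procedure was tested on simulated data with planted log2 changes of at least 1 in size. These are larger than any change of a listed gene in the 33 libraries. The simulation therefore does not show how often changes as small as those given here would be called.

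The listed genes and the wider lists were chosen with earlier results of these data known. The set of 33 libraries was formed in the same way, by the share of reads without a gene. Genes given in detail were, in each comparison, the 2 mitochondrially encoded and 3 nuclear genes with the smallest unadjusted p, the mitochondrially encoded genes with the highest and lowest count, and the nuclear genes with the highest and lowest median CPM. TFAM, POLRMT, LRPPRC and PPARGC1A were followed in all comparisons. MTERF1, GABPA, FASTKD2, COX6A2, ACAD9 and ATPAF2 fall outside this rule and were named after their values were seen.

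The 33 libraries had 15516541 to 23027502 gene counts each, and the tested genes of the list had at least 99 counts in each. Limits for a count of 0 cover counting error only. Each sample is a separate piglet. Litter was not modelled, since the labels do not give it, so littermates are treated as independent. Alternatives were all 36 libraries, DESeq2 1.42.0, DESeq2 size factors in edgeR, limma 3.58.1 voom with quality weights, a robust fit, no sex term, no filter and a stricter one (10 counts in every library), totals without the 13 mitochondrial genes, and each piglet left out in turn. Promoter and protein sequences were not analysed here.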

Additional observations from a re-analysis of the deposited data

Results flagged for a closer look

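A value was singled out where 1 piglet lay farther from the rest of its group than Dixon's limit allows. Chance singles out about 1 in 20 groups where groups are separate and not selected, and 20 of 101 groups of values were singled out here. These groups reuse the same piglets and genes that vary together, picked by small p. Those with 36 libraries also hold piglets set aside beforehand. The number singled out can therefore not be set against chance.

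In 8 of the 20 the piglet was number 207 of MILK-IUGR. Its mitochondrial share was 10.3% against 5.64 to 7.87% in the rest of the group. It had 2726 CPM of ND1 (others 1503 to 1914), 8448 CPM of ND4 (4281 to 6003), 29463 CPM of COX1 (14489 to 20807), 5921 CPM of ND5 (2510 to 3763) and 9725 CPM of CYTB (5593 to 6337). Of the nuclear genes it had 240 CPM of COX7B (149 to 193) and 324 CPM of ATP5PO (205 to 254).

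In the set of 36 libraries, piglet 202 of VEG-NBW had a mitochondrial share of 15.6% (others 5.74 to 7.12%) and a mitochondrial to nuclear ratio of 33 (11.2 to 14.3). Piglet 210 of VEG-IUGR had a mitochondrial share of 0.841% (5.36 to 8.29%), a nuclear subunit share of 0.862% (0.46 to 0.586%) and a ratio of 0.975 (10.6 to 16). Piglet 213 of MILK-NBW had a mitochondrial share of 8.65% (5.22 to 6.39%).

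The remaining 6 were spread over 4 piglets. Piglet 228 of VEG-NBW had 1247 CPM of ND1 (1466 to 1566), and piglet 217 of VEG-IUGR had 4723 CPM of ND5 (2541 to 3386). Piglet 225 of MILK-IUGR had 120 CPM of NDUFA10 (147 to 171) and 68.8 CPM of NDUFA9 (85 to 88.2). Piglet 234 of MILK-NBW had a nuclear subunit share of 0.602% (0.501 to 0.528%) and 199 CPM of COX7B (148 to 171).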

How the results depend on the processing

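No gene of the list passed an adjusted p under 0.05 in any of 43 fits, and the smallest adjusted p over all of them was 0.3463. Of 235 values of the 40 named log2 fold changes under the alternatives other than leaving out a piglet, 226 kept their sign. The 9 with the other sign came from all 36 libraries or from limma voom with quality weights. With all 36 libraries they were -0.15 for COX7B with birth weight, 0.08 for COX4I1 in MILK-NBW against VEG-NBW, 0.06 for COX5A in MILK-IUGR against VEG-IUGR, -0.11 for ND1, -0.11 for ND4 and -0.01 for COX5A in VEG-IUGR against VEG-NBW, and -0.05 for NDUFB5 with sex. With voom they were -0.01 for ND1 with diet and 0.01 for ND5 with sex. The cause was not tested.

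The difference of the mean log2 ratio of mitochondrial to nuclear counts moved with all 36 libraries to 0.493 for MILK-IUGR against VEG-IUGR and to -0.553 for VEG-IUGR against VEG-NBW. Leaving out 1 piglet at a time gave 0.0311 to 0.135 and -0.0374 to 0.0485 for these, -0.156 to -0.105 for MILK-NBW against VEG-NBW and 0.178 to 0.264 for MILK-IUGR against MILK-NBW.

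For MILK-IUGR against MILK-NBW, the number of mitochondrial genes with an unadjusted p under 0.05 was 9 with 33 libraries, 9 with DESeq2, 6 with voom, and 1 to 10 when 1 piglet was left out. It was 1 without piglet 207, 3 without MILK-IUGR replicate 8 or MILK-NBW replicate 5, and 5 without MILK-NBW replicate 4. For birth weight it was 5 with 33 libraries, 7 with DESeq2, 4 with voom, and 2 to 8 with 1 piglet left out. For the nuclear subunits leaving out 1 piglet gave 0 to 5 for the interaction, 0 to 3 in both comparisons of diets at 1 birth weight, 1 to 2 for diet, and 0 to 1 for MILK-IUGR against MILK-NBW and for sex. No paired analysis was possible because replicate numbers only name the piglets. With all 36 libraries the median of all genes moved to 0.138 for the interaction, 0.127 for MILK-IUGR against VEG-IUGR, -0.117 for VEG-IUGR against VEG-NBW and -0.0439 for birth weight. ATP8, with 0 counts in every library, and NDUFS8, with 2 to 13, were not tested. The cause of the missing counts of ATP8 was not tested.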
